A study of Mus musculus with 11 samples.

Results

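The genes for the proteins of the cytosolic ribosome were examined in RNA of the whole distal tibia from 4 Control mice and 7 BMAd-DTA mice. They were chosen by name, as every gene of the merged count table whose symbol is Rpl or Rps followed by a number and at most one of the letters a, x or l, together with Rplp0, Rplp1, Rplp2 and Rpsa, which gave 82 of the 22600 genes in the table. All mice were 24 weeks old, of a mixed C57BL6/SJL strain, fed ad libitum and without further treatment, with 1 library per mouse. The paper's legends for the figures with these RNA data describe male mice. Mice of both groups carried Osterix-FLPo and FAC, the FLPo-dependent Adipoq-Cre in the adiponectin gene, which together form BMAd-Cre. BMAd-DTA mice carried in addition the ROSA-DTA allele, in which a LoxP-flanked STOP cassette precedes diphtheria toxin A, and Control mice are labelled BMAd-WT. The toxin is thereby made where Osterix and Adipoq expression have met, that is, mainly in bone marrow adipocytes (BMAds) and in a small subset of marrow adipogenic lineage precursors, and recombination is incomplete in young mice. The tissue is whole bone with its marrow, so that a lower count can come from fewer cells of a type or from less RNA per cell, which cannot be told apart here. Levels are given as CPM, the read pairs of a gene relative to the library size scaled by the TMM method.

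Each ribosome holds a small 40S and a large 60S subunit, and nearly every one of their proteins is present in a single copy, and the mRNAs are largely regulated together. In mammals most of these mRNAs begin with a C and a run of pyrimidines, the 5′ terminal oligopyrimidine (TOP) motif, through which TOR signalling and the Larp1 protein control their translation together. A few ribosomal proteins have paralogs made mainly in one tissue, such as Rpl3l in heart and skeletal muscle and Rpl39l in the testis. Bone marrow is known for its dependence on ribosomal proteins, since the loss of one copy of any of several of them causes Diamond-Blackfan anemia, a failure of red cell production. Diphtheria toxin A itself acts on translation by inactivating elongation factor eEF2.

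The start of several of these genes is shown first because the TOP motif is known from many of these mRNAs. A promoter window of 300 bases, 250 before and 50 after the annotated start, was found in the RefSeq sequences of GRCm38.p6 for 60 of the 82 members. A C followed by at least 4 further pyrimidines, beginning within 5 bases of the start on the sense strand, was present in 28 of the 60 windows (46.7%), compared with 18.5% of the first windows of all 27025 genes. A run of at least 8 pyrimidines between 20 bases before and 50 bases after the start was present in 46 of 60 (76.7%), compared with 25.4% of all genes. The letters CCGGAAGT, the core of a site for ETS factors, were found on either strand in 12 windows (20%), compared with 4% of all genes, and AAGATGGC, the core of a YY1 site, in 4 (6.67%), compared with 2.88%. Overlaps between these motifs were counted for each. The following stretches run from 60 bases before to 50 bases after the start and hold 110 bases each. Capitals mark a pyrimidine run that begins with C within 5 bases of the start, CCGGAAGT, or AAGATGGC or its reverse complement. Rpl15 and Rpl27a have long runs, Rps27 is the canonical member with the lowest p, Rpl26 and Rpl35a varied most from mouse to mouse among canonical members of at least 50 CPM with a window, and Rpl3l and Rpl39l are the paralogs with the widest range.
Rpl15, chr14:18270937-18271046, minus strand: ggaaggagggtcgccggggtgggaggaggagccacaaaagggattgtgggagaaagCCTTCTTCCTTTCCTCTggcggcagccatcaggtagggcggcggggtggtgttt
Rpl27a, chr7:109519135-109519244, plus strand: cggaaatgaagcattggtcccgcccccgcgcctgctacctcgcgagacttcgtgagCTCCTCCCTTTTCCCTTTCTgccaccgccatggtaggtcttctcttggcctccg
Rps27, chr3:90213599-90213708, minus strand: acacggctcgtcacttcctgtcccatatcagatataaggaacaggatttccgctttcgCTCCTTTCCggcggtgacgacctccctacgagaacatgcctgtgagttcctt
Rpl26, chr11:68901506-68901615, plus strand: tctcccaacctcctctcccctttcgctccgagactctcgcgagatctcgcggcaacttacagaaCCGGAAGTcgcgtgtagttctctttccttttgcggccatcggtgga
Rpl35a, chr16:33056393-33056502, plus strand: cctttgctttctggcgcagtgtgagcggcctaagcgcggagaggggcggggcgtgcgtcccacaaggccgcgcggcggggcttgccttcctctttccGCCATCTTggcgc
Rpl39, chrX:37085173-37085282, minus strand: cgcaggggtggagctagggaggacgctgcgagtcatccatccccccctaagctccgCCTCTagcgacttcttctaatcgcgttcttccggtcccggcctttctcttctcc
Rpl39l, chr16:10170168-10170277, plus strand: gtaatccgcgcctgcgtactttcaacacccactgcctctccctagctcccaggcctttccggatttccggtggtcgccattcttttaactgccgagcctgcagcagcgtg
Rpl3l, chr17:24727766-24727875, plus strand: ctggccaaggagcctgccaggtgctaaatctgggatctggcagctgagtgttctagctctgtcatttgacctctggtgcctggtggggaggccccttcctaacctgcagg
In these stretches Rpl3l and Rpl39l held none of the capitalised motifs, and Rpl39, the partner of Rpl39l, held a short run. A match of letters describes the sequence and does not show that a factor binds it.

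Ribosomal protein mRNAs made up 3.07% ± 0.18 (SD, n = 4) of all counts in Control and 3.15% ± 0.22 (SD, n = 7) in BMAd-DTA mice. Libraries held 16969529 to 18637663 counts, of which 476528 to 598671 fell on the members, so that counting error is small for all but the rarest of them. Their summed level was 32994, 29043, 30178 and 30170 CPM in Control 1 to 4. In BMAd-DTA mice it was 28077 CPM at the lowest, 31663 at the median and 34280 at the highest. The groups overlapped, since BMAd-DTA 1 was below every Control and BMAd-DTA 2, 3 and 6 were above every Control, and the difference of the means was 1057 CPM. The 40S genes were at 12980 ± 683 CPM in Control and 13528 ± 1021 in BMAd-DTA, and the 60S genes at 17616 ± 1009 and 18125 ± 1357 (SD, n = 4 and 7). The ratio of 60S to 40S counts was between 1.34 and 1.37 in Control mice and between 1.29 and 1.39 in BMAd-DTA mice.

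Of the 82 members, 80 had enough counts to be tested. edgeR called none of them at an adjusted p under 0.05, where it called 0.0788% of the 16496 genes tested, and limma-voom called none either. Before adjustment 3 members, Rpl39l, Rps27 and Rps19, had a p under 0.05, all with the higher level in BMAd-DTA mice, while 16.4% of all genes had such a p. The log2 fold change of BMAd-DTA over Control was above 0 in 69 of the 80, compared with 50.4% of all genes, but it was small. Its median was 0.046, with quartiles of 0.014 and 0.082, where the median over all genes was 0.0018. It lay within 0.1 of 0 in 61 members and within 0.2 in 73. For 72 members the 95% interval of the log2 fold change lay between -0.5 and 0.5, which bounds the difference that these 11 mice leave possible. The median was 0.054 over the 30 genes of the 40S subunit and 0.042 over the 45 tested genes of the 60S subunit, paralogs left out. The median of the 80 members was 0.017 without Control 2 and 0.082 without Control 1, so that its size moved with single mice. DESeq2, which called 5.42% of the genes it gave an adjusted p, called 1 member, Rpl39l.

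**Figure D1:**
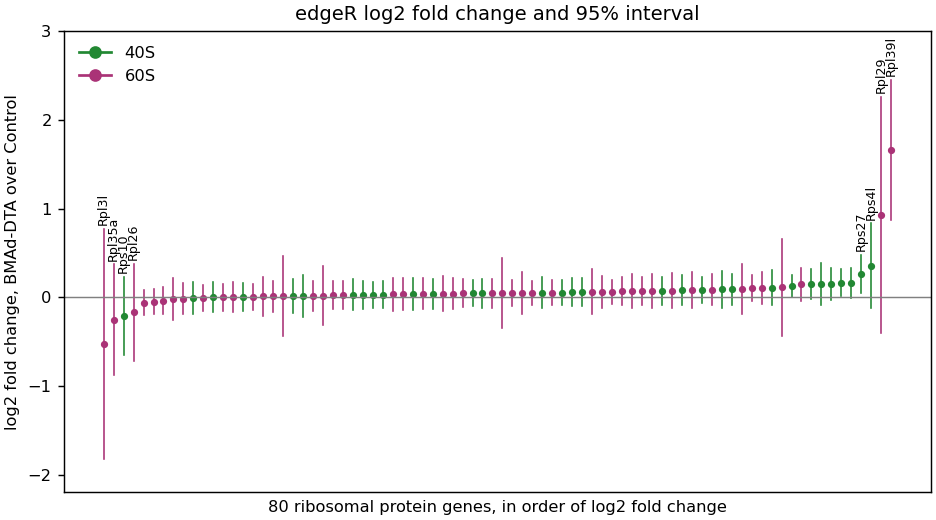
Log2 fold change of BMAd-DTA over Control from edgeR for each of the 80 tested ribosomal protein genes, in order from lowest to highest, with 95% intervals as vertical lines and the colour giving the subunit. 72 intervals lie between -0.5 and 0.5, and the interval of Rpl39l, at the right end, runs from 0.88 to 2.45.

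In each mouse most members stood on the same side of their own mean. Control 1 had 63 of the 80 above their mean over the 11 mice, and Control 2, 3 and 4 had 8, 27 and 23. Among BMAd-DTA mice the number was 7 in mouse 1, 70 each in mice 2, 3 and 6, 55 in mouse 5, 18 in mouse 4 and 27 in mouse 7. The median deviation from the gene's mean, on the log2 scale, ran from -0.15 in BMAd-DTA 1 to 0.14 in BMAd-DTA 2, and from -0.094 to 0.058 in Control mice. BMAd-DTA 1 had the lowest level of 40 of the 80 members, and BMAd-DTA 2 and 6 the highest of 29 and 23. The 2 extremes were thus both BMAd-DTA mice, and the spread between mice of that group was larger than the difference between the groups. All values are shares of a library, so a deviation of the whole set also moves with what the other genes take up. BMAd-DTA 1, 2 and 6 had multimapping pairs of 7.38%, 7.36% and 8.01%, within the range of 6.68% to 9.07% over all mice. The SD of log2 CPM over the 11 mice had a median of 0.12 per gene, was 0.081 at the least and was 0.2 or less in 65 members.

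**Figure D2:**
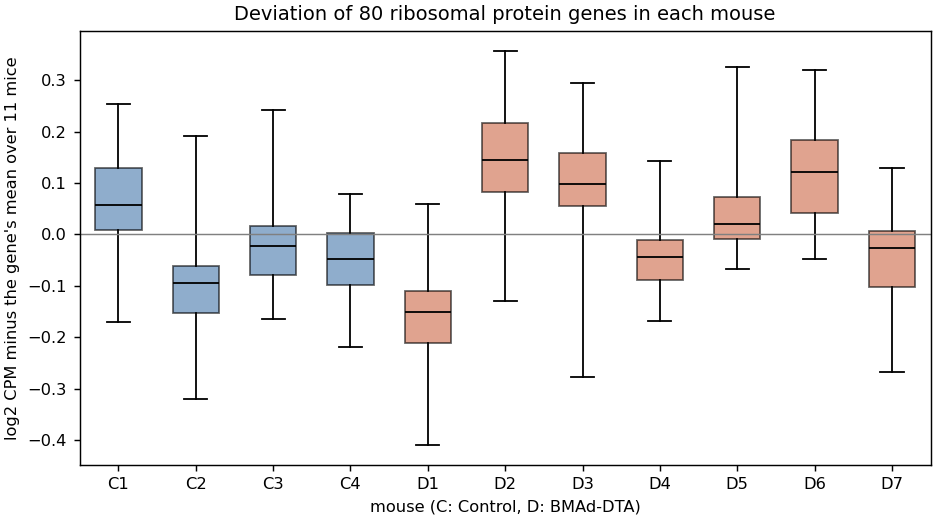
Deviation of the 80 tested ribosomal protein genes from their own mean log2 CPM over 11 mice, one box per mouse, with the median, the quartiles and whiskers from the 5th to the 95th percentile, Control in blue and BMAd-DTA in orange. The medians run from -0.15 in BMAd-DTA 1 to 0.14 in BMAd-DTA 2, and Control mice lie between them.

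Compared per length of the principal transcript, the members spanned a wide range of levels. Rplp1, a protein of the stalk, was the highest at 1563 CPM per kb over all mice, followed by Rps27 at 1226 and Rps15 at 1144. The lowest were Rpl24 at 0.399, Rpl3l at 1.38 and Rpl32l at 1.45 CPM per kb. Of the 76 canonical members, 73 had a mean of 86.6 CPM or more, with a median of 374 and a highest value of 1730 CPM, not scaled by length. The 3 canonical genes below that were Rpl13a, Rps10 and Rpl24. In GENCODE M21 their principal transcripts share exons on the same strand with a longer read-through gene, over 59.3% of the bases of Rpl13a with Gm45713, 53.6% of Rps10 with RPS10-NUDT3 and 71.5% of Rpl24 with Gm28037. STAR assigns a read pair that fits 2 genes to neither, and these 3 read-through genes had 0 counts in every library. Their deposited levels of 15.6, 3.60 and 0.335 CPM in Control mice are therefore not levels of the whole gene. Rpl24 had 0 to 9 counts per library and Rpl32l 8 to 18, and neither was tested. No other member shared over 50% of its bases in this way.

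Many ribosomal protein genes have processed pseudogene copies, so reads that fit a copy equally well are not counted. Of the windows of 100 bases along the principal transcript, a median of 31.2% per member also occurred in a transcript of another gene, and 26 members shared at least 50% of their windows. The share was 98.4% for Rps27, mostly with Rps27rt, 87.1% for Rpl10a and 50.3% for Rpl29. Levels of these genes are measured with less certainty, and a paired fragment is longer than such a window.

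The 3 proteins of the 60S stalk, which recruits the elongation factors, differed little between the groups. Rplp0 was at 1453 ± 123 CPM in Control (SD, n = 4) and 1463 ± 117 in BMAd-DTA mice (SD, n = 7), a log2 fold change of 0.010 with a standard error of 0.08. The values for Rplp1 were 763 ± 38.0 and 789 ± 118 CPM, and for Rplp2 228 ± 8.59 and 231 ± 23.1 CPM. Rpsa, a 40S protein also known as the laminin receptor, was the most abundant member before scaling by length, at 1736 ± 117 and 1726 ± 139 CPM. The sign of the log2 fold change of Rplp0 turned with library totals in place of TMM, and that of Rpsa with upper quartile scaling.

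The groups did not overlap for 1 of the 80 members, with the higher level in BMAd-DTA mice. Over all genes, 1.78% had every BMAd-DTA mouse above every Control and 1.04% had every one below.

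Rps27, a zinc-binding protein of the 40S subunit and the canonical gene with the lowest p, was at 414, 322, 385 and 382 CPM in Control 1 to 4. In BMAd-DTA mice its level was 401 at the lowest, 439 at the median and 572 CPM at the highest. In 5 of the 7 BMAd-DTA mice it exceeded all Control values, and edgeR gave a log2 fold change of 0.26 with an adjusted p of 0.209 and a standard error of 0.10. Rps19, the first gene found mutated in Diamond-Blackfan anemia, was at 241 ± 17.3 CPM in Control and 270 ± 20 in BMAd-DTA mice (log2 fold change 0.16, standard error 0.07, adjusted p = 0.270, edgeR). Rps13 was at 218 ± 11.5 and 244 ± 24.4 CPM, with a log2 fold change of 0.16 as well. For all 3 genes the groups overlapped.

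The 18 members linked to Diamond-Blackfan anemia centred on a log2 fold change of 0.018 (median), 14 of them above 0 and 4 below, where 50.4% of all genes were above 0. Their lowest values belonged to Rpl35a, Rps10, Rpl26 and Rpl27, at -0.25, -0.21, -0.17 and -0.061. Rps10 had only 40 to 77 counts per library, which are not the level of the whole gene. Rpl35a and Rpl26 varied widely between mice, and Rpl35a was at 0.13 without Control 3. Rpl5 and Rpl11, which bind Mdm2 when ribosome assembly fails, were at 338 ± 8.75 and 340 ± 27.3 CPM and at 372 ± 14.6 and 373 ± 32.2 CPM in Control and BMAd-DTA mice. Rps24, Rps28 and Rps29 had log2 fold changes of 0.15 each, and Rps7, Rps26, Rps15a, Rpl15, Rpl18 and Rpl35 lay between 0.004 and 0.08. None of the 18 passed the threshold. Before adjustment 2 of them, Rps19 and Rps27, had a p under 0.05, where 16.4% of all genes had such a p. DESeq2 called none of the 18, and 5.42% of the genes it gave an adjusted p. In the same bones the 14 tested erythroid markers summed to 16087 to 35898 CPM in Control and 21278 to 37843 in BMAd-DTA mice. Among the 14, 13 had the lower fitted level in BMAd-DTA mice (median log2 fold change -0.45). Of these, 8 had an unadjusted p under 0.05, edgeR called none and DESeq2 called 6, beside the same shares of 16.4% and 5.42% over all genes. Their part in the levels of the members was not tested.

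A few members took distinct levels in different mice, against the closely matched levels of the rest. Rpl29, a small basic protein at the surface of the 60S subunit, was at 29.5 CPM in Control 3 and 32.4 in BMAd-DTA 7. It was between 228 and 267 CPM in Control 1, 2 and 4 and in BMAd-DTA 6, and between 422 and 490 CPM in BMAd-DTA 1 to 5. No mouse lay between these 3 ranges, and both the lowest and the middle range held mice of each group. Its log2 fold change of 0.93 was the second largest of the members but had a standard error of 0.62 (adjusted p = 0.485, edgeR), and was 0.58 without Control 3. Leaving Rpl29 out changed the difference in summed CPM from 1057 to 884.

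Rpl35a, a 60S protein, was at 164 CPM in Control 3, between 102 and 119 CPM in Control 2 and BMAd-DTA 4 and 5, and between 56.2 and 71.4 CPM in the other mice. Its log2 fold change was -0.25 (standard error 0.29) and 0.13 without Control 3. Of 49 genes tested within 2 Mb, Gm34680 followed it most closely by Pearson correlation of log2 CPM over the 11 mice. Gm34680 was at 15.7 CPM in Control 3, at 7.66 in Control 2, at 8.30 and 7.40 in BMAd-DTA 4 and 5, and at 0.16 CPM or less in all others. The 4 mice with the higher level of Rpl35a were thus the 4 with Gm34680 above that value.

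Rpl3, whose protein reaches into the peptidyl transferase centre, was lowest in Control 2 and BMAd-DTA 1, at 380 and 354 CPM, and highest in Control 4 and BMAd-DTA 2 and 3, at 639, 614 and 633 CPM. The other 6 mice lay between 478 and 523 CPM. Of 87 genes within 2 Mb, Apobec3 followed it most closely. It was at 53.2 and 49.7 CPM in the 2 mice with the lowest Rpl3, at 235, 259 and 192 in the 3 with the highest, and at 131 to 168 CPM in the other 6. Rpl3 overlapped between the groups, its log2 fold change being 0.018 ± 0.16 (standard error).

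Rpl26, a 60S protein, was at 114 CPM in Control 4 and at 121, 140 and 147 in BMAd-DTA 7, 3 and 2, while the other 7 mice lay between 222 and 288 CPM. Rpl34 was at 79.3 and 77.1 CPM in Control 2 and BMAd-DTA 1, at 187 in Control 3, and at 129 to 160 CPM in the other 8. For Rpl26 and Rpl34 the gene nearest in pattern followed less closely, and for Rpl29 the gene with the largest absolute correlation, Cpne4, ran in the opposite direction. These members were singled out after their values were seen, as the ones with the widest SD of log2 CPM among members with a mean of at least 50 CPM. Rpl30, the next widest, was looked at in the same way. The correlation with the nearest gene was 0.94 for Rpl35a, 0.96 for Rpl3, 0.87 for Rpl26, 0.86 for Rpl34, -0.86 for Rpl29 and 0.60 for Rpl30. Each such gene was picked from 18 to 107 genes within 2 Mb, over 11 mice. The mice came from a mixed strain background, and whether these levels go with the local haplotype was not tested.

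**Figure D3:**
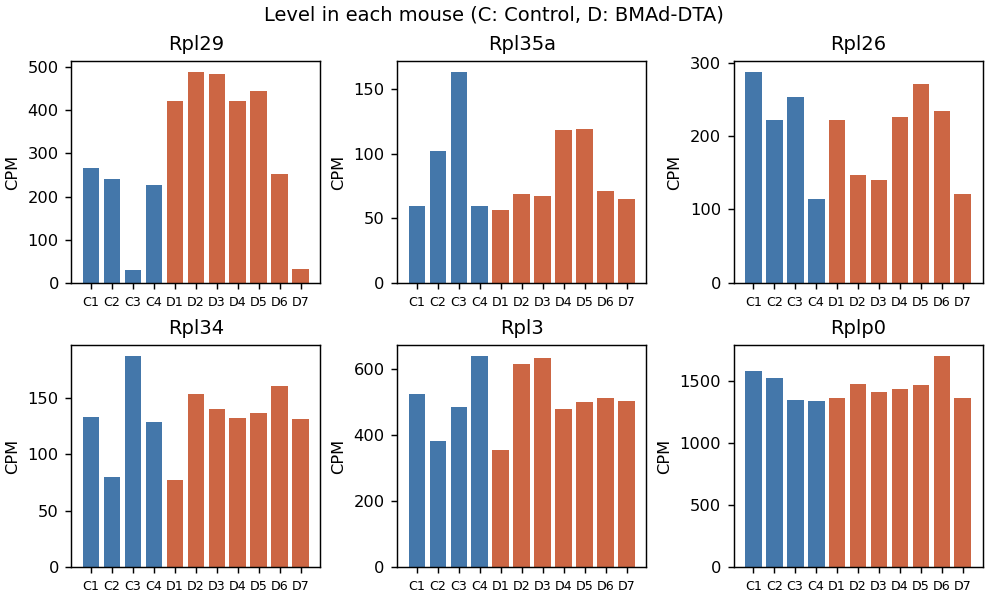
Level in CPM of 5 members with distinct levels between mice, Rpl29, Rpl35a, Rpl26, Rpl34 and Rpl3, and of Rplp0 for comparison, one bar per mouse, Control (C) in blue and BMAd-DTA (D) in orange. Rpl29 is at 29.5 and 32.4 CPM in C3 and D7 and between 228 and 490 CPM in all other mice.

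Of the members, 6 are paralogs of a canonical gene. Among these, Rps4l, Rpl6l and Rpl32l, have no coding sequence in GENCODE M21, and Rpl3l, Rpl39l and Rps27l do. The coding sequence of Rpl39l is as long as that of Rpl39, 153 bases, and the aligned pair differs at 23 of them (85.0% identity), so that reads can tell the genes apart. Rpl39l lies on chromosome 16, 10170226 to 10174911, and Rpl39 on the X chromosome, 37082520 to 37085402, in GRCm38. They are printed from the GENCODE transcripts because Rpl39l had the largest difference of all members, and capitals mark the bases that differ.
Rpl39l: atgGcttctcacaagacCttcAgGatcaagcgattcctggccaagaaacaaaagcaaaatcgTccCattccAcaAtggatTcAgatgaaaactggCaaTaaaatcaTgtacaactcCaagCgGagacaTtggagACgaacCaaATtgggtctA
Rpl39: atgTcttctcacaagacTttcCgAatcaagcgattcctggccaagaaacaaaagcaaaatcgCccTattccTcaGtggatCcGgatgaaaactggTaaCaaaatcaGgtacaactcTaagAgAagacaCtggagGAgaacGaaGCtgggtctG
The coding sequences of Rps27l and Rps27 have 252 bases each with 76.2% identity, and those of Rpl3l and Rpl3 have 73.0%.

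Rpl39l was the member with the largest log2 fold change. It was at 0.661, 0.412, 0.473 and 0.830 CPM in Control 1 to 4, or 12, 7, 8 and 16 counts. In BMAd-DTA mice it was at 0.819 CPM at the lowest, 1.86 at the median and 2.92 at the highest, or 15 to 51 counts. All Control values were exceeded by 6 of the 7 BMAd-DTA mice, and BMAd-DTA 4 lay just under Control 4. The log2 fold change was 1.66 with a 95% interval of 0.88 to 2.45, a standard error of 0.36 and an adjusted p of 0.0709 in edgeR. In DESeq2 it was 1.67 with a standard error of 0.39 (adjusted p = 0.00212), so that the call depends on the tool. Over all alternatives the adjusted p ran from 0.00212 to 0.234, the highest without Control 1, and the log2 fold change from 1.53 to 1.87. Rpl39 was at 109 ± 13.0 CPM in Control and 115 ± 11.4 in BMAd-DTA mice, a log2 fold change of 0.07 (standard error 0.09), and was 184 times as high as Rpl39l in Control and 60.4 times in BMAd-DTA mice, not scaled by length.

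Markers of some cell types differed between the groups in the same libraries. All 15 osteoblast and osteocyte markers had the higher fitted level in BMAd-DTA mice, 1 passing in edgeR and 10 in DESeq2, and their sum was 3507 to 13841 CPM in Control and 16802 to 37257 in BMAd-DTA mice. The sum of 15 T and NK cell markers was 251 to 329.1 CPM in Control and 329.8 to 371 in BMAd-DTA mice, nearly touching. Of these 15, 13 had the higher fitted level in BMAd-DTA mice, and neither edgeR nor DESeq2 called any. The authors' flow cytometry of long bone marrow found fewer T cells, and fewer nucleated marrow cells in total, in BMAd-DTA mice. That is a number of cells, while the sum here is a share of RNA from whole distal tibia that includes NK markers. The measures are therefore unlike. B cell marker sums overlapped, at 2155 to 3781 CPM in Control and 1736 to 3767 in BMAd-DTA mice. Of these 15 markers, 14 had the higher fitted level in BMAd-DTA mice (median log2 fold change 0.39 over the 15). The exception was Ighm at -0.20, which alone held 1104 to 3185 CPM in Control and 707 to 2113 CPM in BMAd-DTA mice. Neither edgeR nor DESeq2 called any of the 15. Neutrophil marker sums overlapped too, at 27101 to 31591 and 22491 to 33587 CPM. All 15 tested adipocyte markers had the lower fitted level, with sums of 1444 to 2362 and 686 to 1673 CPM, and 1 passed in edgeR and 5 in DESeq2. The 2 BMAd-DTA mice with the highest Rpl39l, 2 and 3, had the 2 highest osteoblast sums, 32743 and 37257 CPM, and BMAd-DTA 4, with the lowest, had 24526 CPM, the third highest of the 7. The part of these cells in the level of Rpl39l or of the other members was not tested.

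Rpl3l had the lowest log2 fold change, -0.52, at a standard error of 0.60 (adjusted p = 0.721, edgeR). It was at 1.76, 1.83, 5.26 and 0.570 CPM in Control 1 to 4. In BMAd-DTA mice it was at 0.397 at the lowest, 1.15 at the median and 3.41 CPM at the highest, and the groups overlapped. The sum of 20 skeletal muscle markers was 653, 737, 1715 and 33.4 CPM in Control 1 to 4, and 34.2 to 1301 CPM in BMAd-DTA mice, with all 19 tested markers at a lower fitted level and none past the threshold. Control 3 had the highest value of both. The 3 mice with the highest Rpl3l, Control 3, BMAd-DTA 7 and BMAd-DTA 6, had muscle sums of 1715, 816 and 1301 CPM, the highest 3 of the 11. With a muscle score as a covariate the log2 fold change of Rpl3l was 0.064, and without Control 3 it was 0.24. The 3 mice with less than 0.6 CPM of Rpl3l had muscle sums of 33.4, 43.8 and 41.8 CPM, while BMAd-DTA 2, with a muscle sum of 34.2 CPM, had 1.15 CPM of Rpl3l, as did BMAd-DTA 4 with a sum of 247 CPM.

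**Figure D4:**
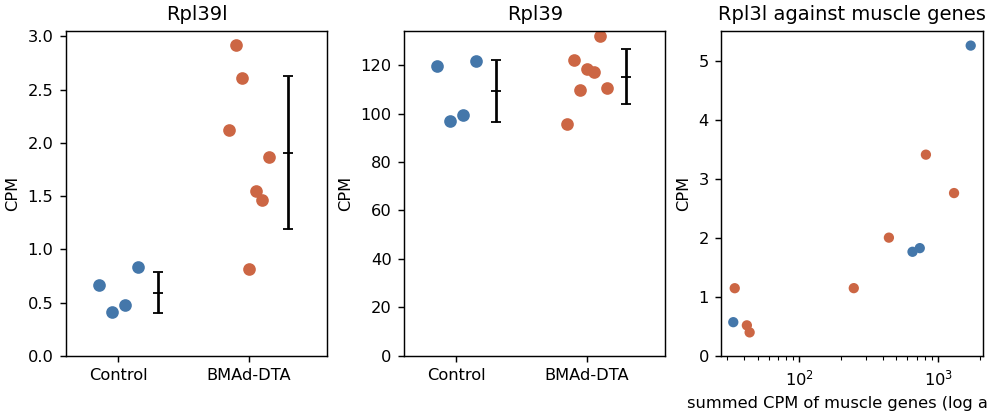
Levels in CPM of Rpl39l and of its canonical partner Rpl39 in each mouse by group, with mean and SD as bars beside the points. Rpl3l is drawn against the summed CPM of the 19 tested skeletal muscle markers on a log axis. Control is in blue and BMAd-DTA in orange. For Rpl39l 6 of 7 BMAd-DTA mice lie above all Control mice, while Rpl39 overlaps, and the highest Rpl3l value, 5.26 CPM, is in the mouse with the highest muscle sum.

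The other paralogs differed by less than their spread. Rps27l, a target of p53 in many cells, was at 20.2 ± 1.51 CPM in Control and 20.8 ± 1.59 in BMAd-DTA mice, at a log2 fold change of 0.04. Rps4l was at 8.20 ± 2.41 and 10.5 ± 2.65 CPM (log2 fold change 0.36, standard error 0.22, adjusted p = 0.455, edgeR), while its partner Rps4x was at 645 ± 39.1 and 658 ± 40.3 CPM. Rpl6l was at 1.52 ± 0.26 and 1.64 ± 0.50 CPM. Rpl10l, the partner of Rpl10 made in the testis, is outside the merged table and had 0 counts in all 11 per-library tables. Rpl10 itself was at 528 ± 20.3 and 552 ± 33.2 CPM.

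Rpl32 is of use as a check because the qPCR of the study was normalised to Hprt and to a gene written as Rpl32a, which is no symbol of the table used here. Rpl32 was at 440, 369, 379 and 411 CPM in Control 1 to 4, and at 375, 412 and 457 at the lowest, the median and the highest in BMAd-DTA mice. The log2 fold change was 0.048 with a 95% interval of -0.10 to 0.20. Hprt was at 62.1 ± 3.78 CPM in Control and 62.1 ± 2.54 in BMAd-DTA mice.

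Other genes that make, regulate and use ribosomes were read in lists. edgeR called none of them in any of the lists that follow, while the factors, the assembly genes, the TOR genes, the p53 targets and the mitochondrial ribosomal proteins had 2, 3, 3, 4 and 4 genes with an unadjusted p under 0.05 (of 33, 54, 15, 20 and 77 tested) and the others none, where 16.4% of all genes had such a p. Of 33 translation initiation and elongation factors tested, 28 had a log2 fold change below 0, with a median of -0.048. The lowest was Eif5, which triggers GTP hydrolysis at the start codon, at 407 ± 42.8 CPM in Control and 340 ± 24.8 in BMAd-DTA mice (log2 fold change -0.26, standard error 0.08, adjusted p = 0.125, edgeR), and DESeq2 called it (adjusted p = 0.0372). The highest was Tpt1 at 0.033. Eef2, the target of the toxin, named here after its values were seen, was at 2512 ± 94.0 and 2489 ± 91.9 CPM, a log2 fold change of -0.013 (standard error 0.07).

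Of 54 genes for ribosome assembly and RNA polymerase I, which makes the ribosomal RNA precursor, 43 were below 0, with a median log2 fold change of -0.080. Dkc1, which guides pseudouridylation of rRNA, was lowest at -0.32 (standard error 0.11, adjusted p = 0.160, edgeR), and Nle1 highest at 0.12. Nop2, an rRNA methyltransferase, was at 48.9 ± 2.82 CPM in Control and 41.0 ± 3.04 in BMAd-DTA mice, the groups did not overlap, and DESeq2 called it (log2 fold change -0.26, adjusted p = 0.0290) where edgeR did not (adjusted p = 0.106). The signs of these medians held in every alternative, from -0.077 to -0.024 for the factors, from -0.11 to -0.035 for assembly and from 0.017 to 0.082 for the ribosomal protein genes. No test compared the lists with each other.

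The 15 genes of TOR signalling to ribosomal protein mRNAs had a median of -0.032, from Larp4 at -0.18 to Akt1s1, an inhibitor of TOR complex 1, at 0.25. The 13 tested genes of ribosomal quality control had a median of -0.083, from Pelo at -0.21 to Edf1 at 0.091. The 20 targets of p53 had a median of -0.0089, from Eda2r at -0.61 to Cdkn1a at 0.47. Eda2r was at 0.94 CPM or less in every mouse. Cdkn1a, which encodes the cell cycle inhibitor p21, was at 27.2 to 34.1 CPM in Control and 35.8 to 47.7 CPM in BMAd-DTA mice without overlap (adjusted p = 0.0675, edgeR), and DESeq2 called it (adjusted p = 0.00121). Another 1 of the 20 targets had every BMAd-DTA mouse below every Control. Over all genes, 1.78% separated upward and 1.04% downward. Of the targets with an unadjusted p under 0.05 in edgeR, 1 was higher and 3 were lower in BMAd-DTA mice. The 77 mitochondrial ribosomal proteins, which belong to another ribosome, had a median of -0.012, from Mrps36 at -0.24 to Mrps18a at 0.18. A further 6 ribosomal proteins that the naming rule leaves out had a median of 0.034, with Rpl36al highest at 0.27 and at under 2 CPM in every mouse.

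**Figure D5:**
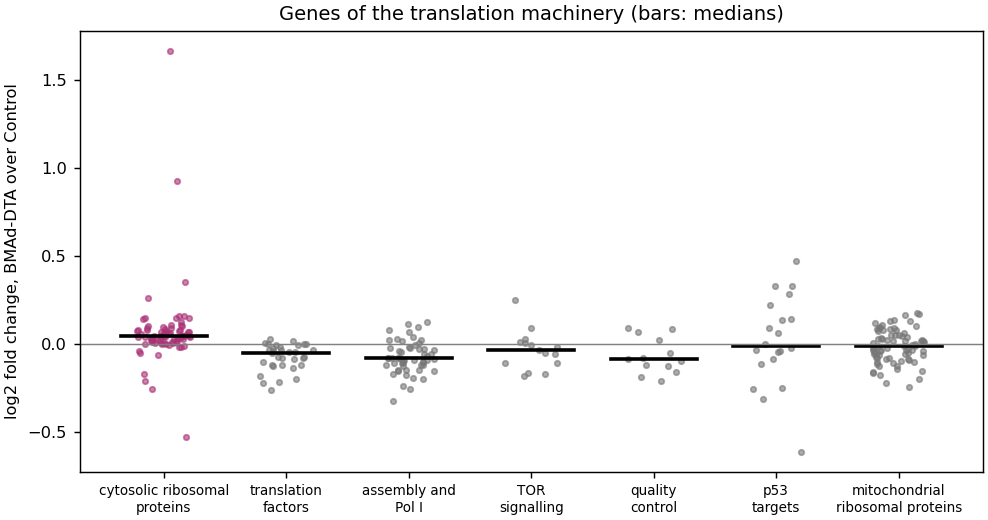
Log2 fold change of BMAd-DTA over Control from edgeR for the genes of 7 lists, one point per tested gene, with the median as a black bar. The median is 0.046 for the 80 cytosolic ribosomal protein genes, -0.048 for 33 translation factors, -0.080 for 54 assembly genes and -0.012 for 77 mitochondrial ribosomal proteins.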

How the data were processed

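Total RNA of whole distal tibiae was sequenced by strand-specific paired-end mRNA sequencing. The authors checked reads with FastQC 0.11.9, aligned them to mm10 with STAR and deposited raw counts of read pairs per gene, per library and as 1 merged table. The annotation release is not given in the sources used here, but all 82 members carried the identifier and version of GENCODE M21, whose positions and transcripts were used. Samples were grouped by the genotype in the labels, and replicate numbers are in accession order. Nothing in the labels says more about relatedness of the mice. The merged counts went into edgeR 4.0.16 (R 4.3.3) with its group-wise filterByExpr, TMM factors and quasi-likelihood steps (estimateDisp, glmQLFit, glmQLFTest, two-sided, Benjamini-Hochberg over 16496 genes, adjusted p under 0.05), with genotype as the only term. Standard errors were computed as |log2 fold change|/√F. DESeq2 1.42.0, limma-voom 3.58.1, other scalings, filters and tables, a muscle score and each mouse left out were the alternatives. The authors themselves used DESeq2. Steps were tested on simulated data. Coding sequences were aligned with Biopython 1.88. Named were members past the threshold, the 5 largest and 5 smallest log2 fold changes, the stalk and Rpsa, paralogs and their partners, Rpl32, the 3 highest and 3 lowest per kb, the 3 widest spreads, the Diamond-Blackfan genes, and the extremes of the other lists. Members and lists were chosen with earlier results of these data known. Some genes of these lists are not reported here.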

Additional observations from a re-analysis of the deposited data

Results flagged for a closer look

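Within a group, 1 mouse stood apart by Dixon's criterion in 7 of the 68 cases looked at, over 33 named members and the summed level. Chance flags about 1 in 20 groups. Rpl29 was lowest in Control 3, at 29.5 CPM against 228 CPM in the next Control. Rps26 was highest in Control 1, at 872 CPM against 704. Rps15a was lowest in Control 2, at 188 CPM against 215. Rps27 was highest in BMAd-DTA 2, at 572 CPM against 461, and so was Rpl11, at 440 CPM against 380. Rplp0 was highest in BMAd-DTA 6, at 1708 CPM against 1477. Rplp2 was lowest in BMAd-DTA 1, at 184 CPM against 226.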

How the results depend on the processing

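No paired analysis was possible because the labels name no litters or pairs of mice. DESeq2 called 845 genes in all, where edgeR called 13. The DESeq2 calls held 1 ribosomal protein gene, Rpl39l, which is also the 1 paralog called. They also held 1 gene each among the p53 targets (Cdkn1a), the assembly genes (Nop2) and the translation factors (Eif5). None of these was called by edgeR. RLE scaling and limma-voom called 20 genes each, the muscle covariate left 3, and leaving out 1 mouse gave 0 to 292 calls, the highest without Control 3. The number of members whose groups do not overlap was 2 with upper quartile scaling, 0 with library totals and with unstranded counts, and 1 to 2 with 1 mouse left out. In the main setting 1.78% of all genes separated upward and 1.04% downward. The share of all genes under each alternative is not given, so these counts say nothing particular about the members. With 1 mouse left out, the median log2 fold change was -0.11 to -0.042 for ribosomal quality control and -0.023 to 0.039 for p53 targets, with 0 to 1 of them called. It was 0.11 to 0.34 for the paralogs Rpl3l, Rpl39l, Rps27l and Rps4l, against 0.20 with all mice. Of 759 values of 33 named members under 23 alternatives, 705 kept direction and side of the threshold, 53 turned in sign and 1, Rpl39l in DESeq2, passed. The signs that turned were of values near 0, apart from Rpl3l and Rpl35a. With 1 mouse left out, Rpl3l ran from -0.85 to 0.24, Rpl35a from -0.42 to 0.13, Rpl3 from -0.098 to 0.15, Rplp0 from -0.031 to 0.055, Rplp1 from -0.012 to 0.096, Rplp2 from -0.012 to 0.065, Rpsa from -0.039 to 0.033, Rpl5 from -0.017 to 0.032, Rpl11 from -0.042 to 0.024, Rps7 from -0.026 to 0.045, Rps26 from -0.026 to 0.11, Rpl15 from -0.019 to 0.052 and Rpl35 from -0.028 to 0.063. With library totals the sign turned for Rplp0 at -0.0012, Rpl5 at -0.0046, Rpl11 at -0.0093, Rps7 at -0.0061 and Rpl35 at -0.0072, with upper quartile scaling for Rpsa at 0.0047, and with limma-voom for Rpl11 at -0.0014. With the muscle covariate it turned for Rpl3l at 0.064, Rpl3 at -0.066, Rpl5 at -0.0059, Rpl11 at -0.017, Rps7 at -0.022 and Rpl35 at -0.014. The cause was not tested. Depth limits Rpl39l, Rpl3l, Rps10, Rpl6l, Rpl24 and Rpl32l, which had under 100 counts in every library.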
